A study of Mus musculus with 6 samples.

Results

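The matrix metalloproteinases (MMPs) measured in mouse colon were 9 genes, Mmp2, Mmp3, Mmp7, Mmp8, Mmp9, Mmp10, Mmp12, Mmp13 and Mmp14, taken by name from the 18477 genes of the deposited table. The colon RNA came from 3 mice of the DSS group and 3 mice of the DSS+BV group, each sequenced as 1 library, and the comparison asks how the colon transcriptome differs when mice with colitis also receive *B. vulgatus*. Male C57BL/6 mice, 6 to 8 weeks old and kept free of specific pathogens, drank 2% dextran sulfate sodium (DSS), a polymer that injures the colon epithelium, on days 8 to 14. The DSS mice received PBS by gavage on each of 14 days, and the DSS+BV mice received *Bacteroides vulgatus* in PBS on the same days. All 6 mice therefore received DSS, no mouse without DSS is among these libraries, and a lower value in the DSS+BV group is lower than in untreated colitis rather than measured against a healthy colon.

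MMPs are zinc endopeptidases that are made as inactive proenzymes and cut extracellular matrix, cytokines and other secreted proteins once their propeptide is removed. Other proteases and other MMPs remove it, and tissue inhibitors of metalloproteinases (TIMPs) block the active site. In inflamed colon, MMPs are made mainly by neutrophils, macrophages, fibroblasts and the epithelium at the wound edge, and they are widely used as a transcript readout of tissue damage and remodelling.

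In the DSS+BV group, Mmp8, Mmp9 and Mmp13 fell, no member rose, and Mmp3, Mmp10 and Mmp12 had log2 fold changes of -3.29, -3.17 and -2.02 that missed the threshold. Mmp2 and Mmp14 had estimates 1.76-fold and 1.55-fold lower, and Mmp7 was the one member with a higher mean. A gene was called where the adjusted p of edgeR's quasi-likelihood test was under 0.05 over all 14579 tested genes and the absolute log2 fold change was over 1. Of the 9 members, 3 were called lower, against 0.0892% of all tested genes, and 0 were called higher, against 0%. In 8 of the 9, every DSS+BV library was lower than every DSS library, which held for 11.3% of all tested genes, and the reverse, found for 6.37% of genes, held for 0 members. The same 8 had an unadjusted p under 0.05 in the lower direction, as did 9.12% of tested genes, and 0 members had one in the higher direction, against 3.4%. Lower estimates were found for 8 of the 9 and for 51.5% of genes, and log2 fold changes under -1 for 6 of the 9 and for 7.12% of genes. The median log2 fold change was -2.77 over the members and -0.011 over all tested genes. The members were chosen with earlier results of these data known, so these shares describe the list and do not test it.

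Expected counts summed to between 15293276 and 17254343 per library, and values are given as CPM, the count relative to a TMM-adjusted library size. The libraries did not group by treatment over all genes. DSS 1, DSS 3 and DSS+BV 1 clustered together, apart from DSS 2, DSS+BV 2 and DSS+BV 3, and lymphoid markers summed to 174 to 287 CPM in the former and 31.9 to 35.8 CPM in the latter. Genes of the distal colon summed to 344, 58.9 and 192 CPM in DSS 1, 2 and 3, compared with 340.5, 166 and 13.97 CPM in DSS+BV 1, 2 and 3, so DSS 1, DSS 3 and DSS+BV 1 lay above the others of their group. The labels do not give the segment of colon sampled, and its part in the results was not tested. Results were also computed without DSS 2 and DSS+BV 1, a choice made after the data were seen. The libraries left were DSS 1 and DSS 3 against DSS+BV 2 and DSS+BV 3, the same division as the clusters. Treatment and cluster therefore cannot be told apart in that fit. In that fit of 2 libraries against 2, 4 members were called lower, Mmp3, Mmp8, Mmp9 and Mmp13, against 2.27% of tested genes, and 0 were called higher, against 1.92%. All 15 epithelial markers, Epcam among them, were detected in these colon libraries. In whole tissue, fewer cells of a type and less RNA per cell cannot be told apart.

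Of the 9 genes, 6 lie in 1 MMP gene cluster of 427 kb, chr9:7272514-7699585 (GRCm38.p6). Promoters are shown because members with large differences lie there with Mmp7, whose groups overlapped on few counts. RefSeq promoter sequences of GRCm38.p6 were held for 7 of the 9 members. The 250 bases before the annotated start were searched on both strands for the AP-1 letters TGANTCA and the TATA letters TATAAA, which do not overlap each other here, and these are in capitals, 5′ to 3′ on the plus strand. The AP-1 letters stand in 6.75% and the TATA letters in 12.4% of the 32851 promoters of the same length. Mmp13, Mmp3, Mmp10 and the first start of Mmp7 held both.
Mmp13, chr9:7272264-7272513: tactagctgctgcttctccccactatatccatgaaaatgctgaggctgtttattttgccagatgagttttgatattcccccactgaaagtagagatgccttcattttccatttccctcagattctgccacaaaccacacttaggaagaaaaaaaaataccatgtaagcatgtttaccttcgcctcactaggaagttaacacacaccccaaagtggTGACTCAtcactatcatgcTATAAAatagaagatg
Mmp3, chr9:7445572-7445821: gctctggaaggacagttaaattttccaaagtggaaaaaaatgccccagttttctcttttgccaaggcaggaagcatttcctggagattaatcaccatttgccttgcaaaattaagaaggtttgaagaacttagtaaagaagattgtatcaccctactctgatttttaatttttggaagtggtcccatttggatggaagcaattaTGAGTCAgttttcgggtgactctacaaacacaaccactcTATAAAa
Mmp10, chr9:7502092-7502341: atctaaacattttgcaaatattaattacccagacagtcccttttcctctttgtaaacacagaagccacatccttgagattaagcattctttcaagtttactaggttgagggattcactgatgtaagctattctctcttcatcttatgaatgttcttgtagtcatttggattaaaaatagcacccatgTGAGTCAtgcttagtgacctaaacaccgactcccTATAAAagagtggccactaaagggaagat
Mmp7, chr9:7691840-7692089: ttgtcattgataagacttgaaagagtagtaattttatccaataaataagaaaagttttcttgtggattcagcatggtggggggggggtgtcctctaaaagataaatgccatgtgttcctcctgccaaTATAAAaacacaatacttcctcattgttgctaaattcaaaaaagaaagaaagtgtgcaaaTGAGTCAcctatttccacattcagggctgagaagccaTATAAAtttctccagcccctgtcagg

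The AP-1 letters began 35 bases before the start in Mmp13, 46 in Mmp3, 63 in Mmp10 and 63 in Mmp7. The groups overlapped on few counts for Mmp7 and had large differences for the other 3. Any part of these motifs in the differences was not tested. The first start of Mmp12 held neither the AP-1 nor the TATA letters, and a second start held the AP-1 letters only. The second start of Mmp7 also held neither. Mmp8, whose difference was the largest of the 9, and Mmp14, whose difference was the smallest, held neither in this window.
Mmp8, chr9:7558179-7558428: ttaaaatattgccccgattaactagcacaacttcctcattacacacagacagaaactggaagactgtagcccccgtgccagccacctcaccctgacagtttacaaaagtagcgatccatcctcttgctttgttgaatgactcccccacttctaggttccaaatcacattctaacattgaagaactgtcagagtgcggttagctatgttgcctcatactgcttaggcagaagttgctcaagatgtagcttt
Mmp14, chr14:54431348-54431597: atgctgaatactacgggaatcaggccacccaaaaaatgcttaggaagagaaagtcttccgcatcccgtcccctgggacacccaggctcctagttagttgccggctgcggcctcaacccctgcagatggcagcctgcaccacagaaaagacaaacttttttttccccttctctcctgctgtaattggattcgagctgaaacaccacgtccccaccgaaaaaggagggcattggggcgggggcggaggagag

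A match describes letters in the window, not a bound site. The letters AGGAAG, the core of the Ets family motif PEA3, stood on either strand in every one of these sequences except that of Mmp10, and in 29.5% of all promoters. The Mmp14 promoter was 55.2% G or C and those of Mmp13, Mmp3, Mmp10 and Mmp7 were between 37.2% and 40.4%, with a median of 52.4% over all promoters.

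**Figure D1:**
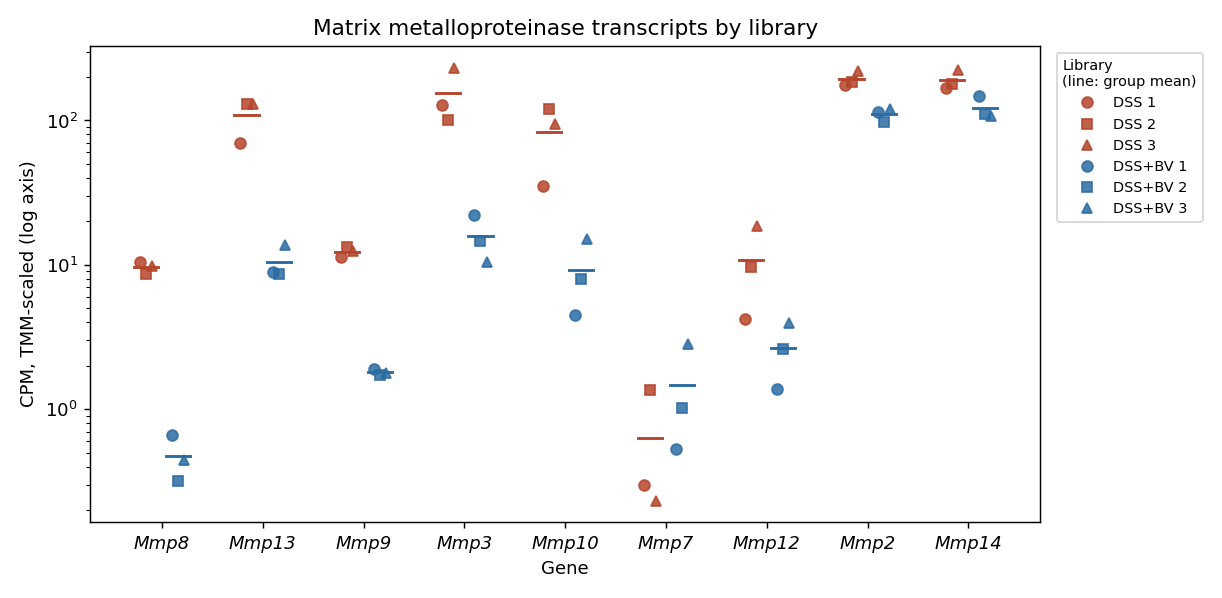
TMM-scaled CPM of the 9 genes on a log axis, with 1 point per library and a line at each group mean (3 DSS, 3 DSS+BV). The points of the groups are separated for every gene except Mmp7, and the groups lie farthest apart for Mmp8.

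The plot of CPM by library shows each gene with its spread, and the values follow by enzyme class. The collagenases, which cleave fibrillar collagen, are Mmp8 and Mmp13. Mmp8 (Entrez 17394, chr9:7558429-7568486) is the collagenase stored in neutrophil granules. The DSS libraries 1, 2 and 3 held 10.4, 8.58 and 9.84 CPM of it, against 0.660, 0.319 and 0.443 CPM for DSS+BV 1, 2 and 3. The DSS libraries were close together and every DSS+BV library lay far below them. Mmp8 fell from 9.61 ± 0.941 to 0.474 ± 0.173 CPM (mean ± SD, n = 3 each), 20.0-fold lower in the fit, with a log2 fold change of -4.32 (SE 0.340, adjusted p = 0.0179). This was the largest difference among the 9, and it rests on few reads in the DSS+BV group, where the counts were 10, 5 and 7 against 174, 138 and 169. The exact Poisson 95% intervals, which cover counting error only, stayed at or under 18.4 in the former and at or over 116 in the latter. All 3 DSS libraries but only 1 DSS+BV library had reached the minimum count of 10.

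Mmp13 (Entrez 17386, chr9:7272514-7283333), collagenase-3, is made by activated fibroblasts and other stromal cells. Its CPM was 69.8, 130.2 and 129.6 in the DSS libraries and 8.90, 8.66 and 13.7 in the DSS+BV libraries. The lowest DSS library was thus several times above the highest DSS+BV library, and DSS 1 stood below the other DSS libraries. Mmp13 fell from 109.9 ± 34.7 to 10.4 ± 2.82 CPM, a log2 fold change of -3.40 (SE 0.325, adjusted p = 0.0293).

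The gelatinases, which digest denatured collagen and basement membrane collagen, are Mmp9 and Mmp2. Mmp9 (Entrez 17395, chr2:164940326-164955850), the inducible gelatinase of neutrophils and macrophages, reached 11.4, 13.2 and 12.4 CPM in the DSS libraries, compared with 1.91, 1.72 and 1.77 in the DSS+BV libraries. Its CPM varied least between libraries of the 9 members, with coefficients of variation of 7.57% and 5.55%. The counts behind these values were 190, 213 and 213 against 29, 27 and 28. Counting error alone is larger than the spread of the DSS+BV libraries, so the small spread does not show that the gene varies little. Mmp9 fell by 2.77 on the log2 scale (SE 0.216, adjusted p = 0.0179), from 12.3 ± 0.934 to 1.80 ± 0.10 CPM.

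Mmp2 (Entrez 17390, chr8:92827290-92853421), the constitutive gelatinase of fibroblasts, stood at 177, 185 and 221 CPM in the DSS libraries, compared with 114, 97.5 and 119.9 in the DSS+BV libraries. The groups did not overlap, but the means, 194 ± 23.1 and 110.4 ± 11.6 CPM, were much nearer each other than those of Mmp9. The estimate was -0.82 on the log2 scale (SE 0.149, 95% interval -1.17 to -0.46, adjusted p = 0.173), which missed both thresholds. Mmp14 (Entrez 17387, chr14:54431598-54442456) encodes a membrane-bound MMP that activates the proenzyme of Mmp2. Its levels of 168, 179.7 and 223 CPM with PBS and of 148, 111 and 108 CPM with *B. vulgatus* left a gap of 1.13-fold between the groups. The estimate was -0.63 (SE 0.185, 95% interval -1.08 to -0.19, adjusted p = 0.320), from means of 190.0 ± 28.8 and 122 ± 22.5 CPM.

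The stromelysins, broad proteases that also activate other MMP proenzymes, are Mmp3 and Mmp10. Mmp3 (Entrez 17392, chr9:7445822-7455975) gave 127, 101 and 232 CPM in the DSS libraries, compared with 22.2, 14.7 and 10.4 in the DSS+BV libraries. Every DSS library was several times above every DSS+BV library, while DSS 3 was far above the other DSS libraries. The means were 154 ± 69.3 and 15.7 ± 5.94 CPM, and the log2 fold change of -3.29 (SE 0.420, 95% interval -4.29 to -2.29) did not pass, at an adjusted p of 0.0833. Mmp10 (Entrez 17384, chr9:7502342-7510242), known from epithelium at wound edges, gave 34.9, 119 and 94.3 CPM in the DSS libraries, compared with 4.49, 7.96 and 15.1 in the DSS+BV libraries. DSS 1 was low among the DSS libraries, as it was for Mmp13. The estimate was -3.17 (SE 0.604, 95% interval -4.61 to -1.73, adjusted p = 0.186), from 82.9 ± 43.4 to 9.19 ± 5.42 CPM.

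Mmp12 (Entrez 17381, chr9:7344397-7360461) is macrophage elastase. Its levels were 4.19, 9.70 and 18.5 CPM with PBS, compared with 1.39, 2.61 and 3.98 CPM with *B. vulgatus*. The groups barely separated, with the lowest DSS library 1.05-fold above the highest DSS+BV library. The coefficients of variation, 66.7% and 48.9%, were among the largest of the 9, and the log2 fold change was -2.02 (SE 0.621, 95% interval -3.50 to -0.53, adjusted p = 0.329), from 10.8 ± 7.2 to 2.66 ± 1.30 CPM.

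Mmp7 (Entrez 17393, chr9:7692090-7699585), matrilysin, is an epithelial MMP that also processes defensins in Paneth cells of the small intestine. It was close to the detection limit, with 0.299, 1.37 and 0.233 CPM in the DSS libraries, compared with 0.528, 1.02 and 2.85 in the DSS+BV libraries. The groups overlapped, and the counts behind these values were only 5, 22 and 4 with PBS, compared with 8, 16 and 45 with *B. vulgatus*. The group means were 0.633 ± 0.637 and 1.46 ± 1.22 CPM, and the interval of the log2 fold change, -0.89 to 3.31 around 1.21, spans both directions (adjusted p = 0.603). The estimate was 0.30 without DSS+BV 3, 2.44 without DSS 2 and 2.85 without both DSS 2 and DSS+BV 1. Mmp7 was also higher in DSS 2, DSS+BV 2 and DSS+BV 3, which clustered together over all genes, than in the other 3 libraries.

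Single libraries changed the calls. With each library left out in turn, Mmp9 and Mmp13 passed in 0 of 6 fits, with adjusted p-values of 0.0621 to 0.242 and 0.0630 to 0.276, and Mmp8 passed only without DSS+BV 1, in a range of 0.0404 to 0.212. DESeq2 called 6 members lower, Mmp3, Mmp10 and Mmp12 besides those of edgeR, against 1.73% of its 16152 genes with an adjusted p, and 0 higher, against 0.279%. For Mmp2, DESeq2 gave an adjusted p of 0.00115, and only the fold change threshold was missed, at -0.80. Mmp14 missed both with DESeq2, at -0.61 (adjusted p = 0.118).

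**Figure D2:**
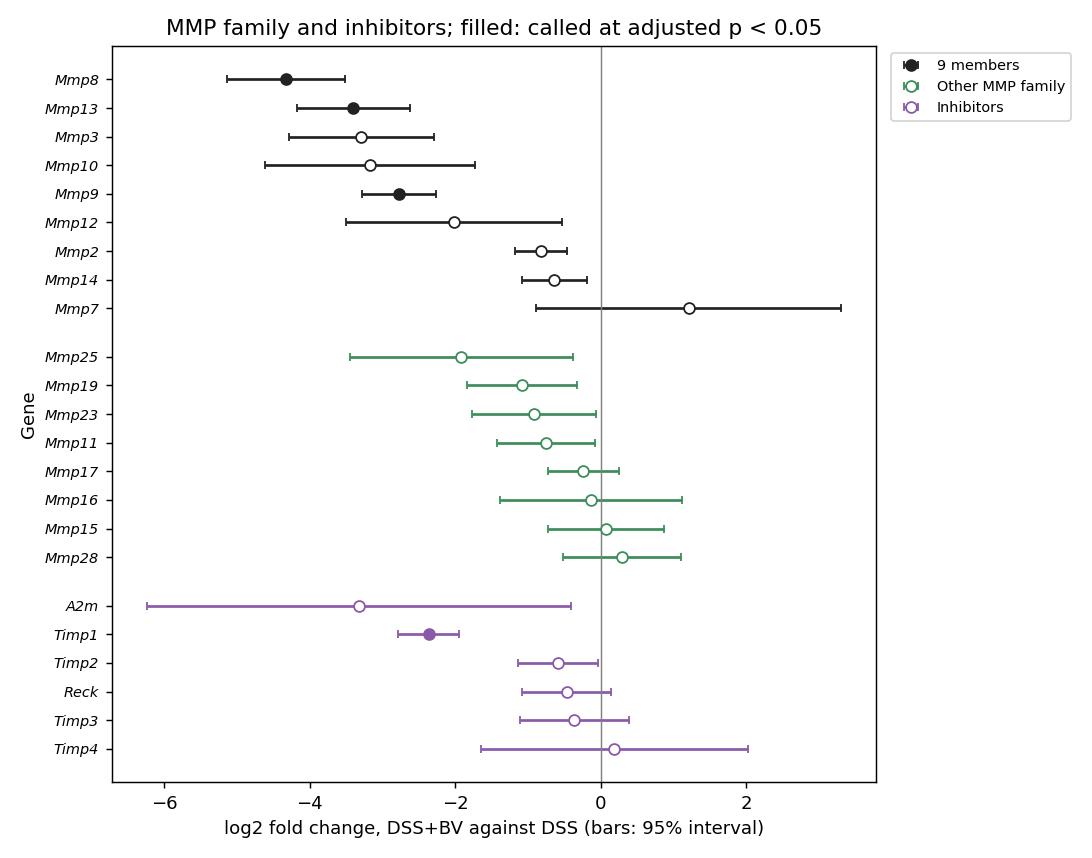
Log2 fold change of DSS+BV against DSS with its 95% interval for the 9 members, the 8 tested other MMP genes and the 6 tested inhibitors (3 libraries per group), with filled points for called genes. Mmp8, Mmp13, Mmp9 and Timp1 are filled, and the intervals of Mmp2 and Mmp14 lie nearer 0 than those of Mmp8, Mmp9 and Mmp13.

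The composition of the MMP pool differed between the groups as well as its size. Levels were compared between genes only after division by the merged exon length, as CPM per kb. The 9 genes summed to 224, 289 and 370.0 CPM per kb in the DSS libraries and to 92.4, 76.5 and 88.8 CPM per kb in the DSS+BV libraries, so every DSS sum was above every DSS+BV sum. In DSS, Mmp3 led at 85.4 ± 38.5 CPM per kb, followed by Mmp2 at 63.2 ± 7.5, Mmp10 at 48.1 ± 25.2, Mmp14 at 45.4 ± 6.88 and Mmp13 at 41.1 ± 13.0. Neighbours in this order did not differ beyond their spread. Mmp8 and Mmp9 were an order of magnitude lower, at 3.96 ± 0.388 and 3.89 ± 0.294, with Mmp12 at 2.71 ± 1.81 and Mmp7 at 0.593 ± 0.596, and neighbours among these 4 overlapped too.

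In DSS+BV, Mmp2 and Mmp14 led at 35.9 ± 3.77 and 29.3 ± 5.38 CPM per kb, and both were clear of Mmp3, at 8.74 ± 3.30. Mmp10 and Mmp13 were at 5.33 ± 3.15 and 3.89 ± 1.05, and the libraries of Mmp10 overlapped with those of both Mmp3 and Mmp13. Mmp7 was at 1.37 ± 1.14, Mmp12 at 0.668 ± 0.326, Mmp9 at 0.567 ± 0.0315 and Mmp8 at 0.195 ± 0.0712, which made the neutrophil collagenase the lowest of the 9, clear of Mmp9 in every library. Mmp7, Mmp12 and Mmp9 overlapped in that order.

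Of the length-corrected sum, Mmp2 and Mmp14 together made up 43.6%, 35.7% and 33.7% in the DSS libraries, compared with 78.4%, 76.1% and 72.9% in the DSS+BV libraries. Mmp3, Mmp10 and Mmp13 together made up 52.3%, 60.4% and 62.8% in the DSS libraries, compared with 19.7%, 20.9% and 22.2%. The groups did not overlap in either share. The stacked bars of CPM per kb show Mmp3, Mmp10 and Mmp13 as the larger part of the DSS columns and the smaller part of the DSS+BV columns.

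**Figure D3:**
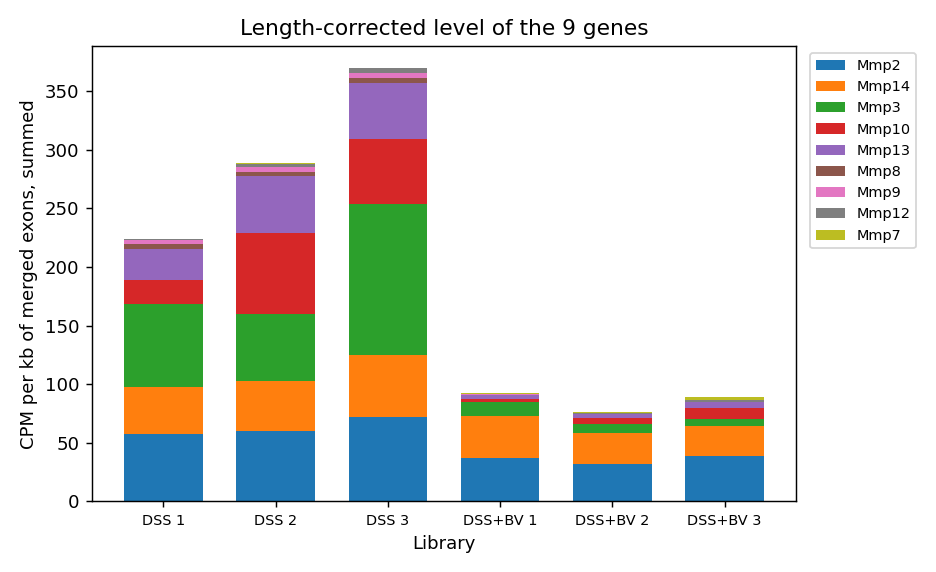
CPM per kb of merged exons of the 9 genes, stacked for each library. The DSS columns reach 224 to 370.0 and the DSS+BV columns 76.5 to 92.4, and Mmp2 and Mmp14 at the base fill most of the DSS+BV columns.

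Along the chromosome 9 cluster the differences were uneven. The order of the 10 MMP genes is Mmp13, Mmp12, Mmp1b, Mmp3, Mmp1a, Mmp10, Mmp8, Mmp27, Mmp20 and Mmp7. Mmp1b and Mmp20 had 0 counts in all 6 libraries, which allows up to 3 counts in each, and Mmp27 was too low to be tested, with 9, 16 and 15 counts in the DSS libraries against 6, 9 and 4. Mmp1a was not analysed here. The 5 tested genes from Mmp13 to Mmp8 had log2 fold changes between -4.32 and -2.02, and Mmp7, at the far end, was at 1.21. None of the 3 nearest tested genes on either side was called, and the groups overlapped for each. On the Mmp13 side, the dynein gene Dync2h1 and the neddylation factor Dcun1d5 were at -0.31 and -0.078, and the growth factor gene Pdgfd, more distant, at -0.31. On the Mmp7 side, Tmem123 and the apoptosis inhibitors Birc2 and Birc3 were at -0.56, -0.21 and -0.31. The map of the cluster shows the low values bounded by these genes near 0 on the left and by Mmp7 on the right.

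**Figure D4:**
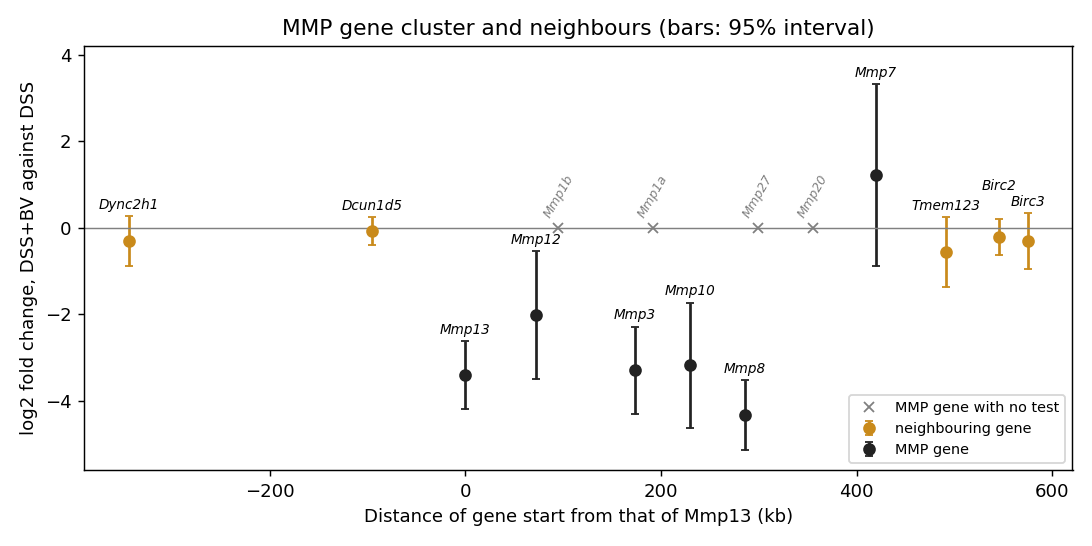
Log2 fold change of DSS+BV against DSS with its 95% interval (3 libraries per group), plotted against the distance of each gene's start from that of Mmp13 in kb, with crosses for MMP genes without a test. Mmp13, Mmp12, Mmp3, Mmp10 and Mmp8 lie between -4.32 and -2.02 and the neighbours between -0.56 and -0.078, with Pdgfd outside the plotted range.

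Markers of the cells known to make these enzymes were counted beside them. Over all tested genes, for comparison, 51.5% had lower estimates, 0.0892% were called lower and 0% were called higher. Of 18 neutrophil markers, 13 were tested, all 13 were lower in DSS+BV and 4 were called, S100a8, S100a9, Cxcr2 and Retnlg, with a median log2 fold change of -2.98. Each of these 4 calls is lost without DSS 1, DSS 3, DSS+BV 2 or DSS+BV 3, where 0 genes were called lower. The 13 tested markers summed to 267 to 1176 CPM with PBS and to 53.0 to 382 CPM with *B. vulgatus*. Ly6g alone had 76.1 to 854 CPM in the former and 19.1 to 303 CPM in the latter. The granule gene Elane had 0 counts in every library, and Mpo, Camp and Cxcr1 had at most 4. Of 15 fibroblast markers, 15 were lower, 0 were called, and the median was -0.97, with sums of 4637 to 4847 CPM against 1851 to 2669 CPM. Of 15 macrophage markers, 14 were lower and 0 were called, with a median of -0.89 and sums of 1035 to 2244 CPM against 673 to 1543 CPM. All 15 epithelial markers had higher estimates and 0 were called, with a median of 0.45 and sums of 16889.7 to 27113 CPM against 28588 to 46744 CPM. With edgeR, none of 10 smooth muscle, 10 endothelial, 9 tested lymphoid and 6 distal colon genes was called, with medians of -0.16, -0.63, -0.35 and -0.17. At an unadjusted edgeR p under 0.05, 12 neutrophil, 11 fibroblast, 3 macrophage and 4 endothelial markers were lower and 5 epithelial markers were higher. None of the smooth muscle, lymphoid and distal colon genes passed. The shares over all tested genes were 9.12% lower and 3.4% higher. DESeq2 called 11 neutrophil, 6 fibroblast, 2 macrophage and 1 endothelial marker lower, 1 epithelial marker higher and 0 smooth muscle, lymphoid and distal colon genes. Over all genes with a DESeq2 adjusted p, 1.73% were called lower and 0.279% higher.

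Each member was therefore set against the marker list of a cell type known to make it, as the log2 ratio of its CPM to the mean log2 CPM of that list. The difference between the groups in this ratio was tested with an exact two-sided permutation test, in which 3 libraries against 3 cannot give a p below 0.1. After adjustment over the 9 members, the smallest p reached was 0.15, so none passed.

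Both Mmp8 and Mmp9 were set against neutrophil markers, and the difference between these 2 genes was not tested. The ratio of Mmp8 was -0.65, -0.032 and -1.07 in the DSS libraries, compared with -2.06, -2.46 and -1.53 in the DSS+BV libraries. The groups did not overlap, and the ratio differed by -1.44 on the log2 scale (exact permutation p = 0.1, adjusted p = 0.15). The list is uneven, since S100a8 and S100a9 fell by 4.42 and 4.19, close to the -4.32 of Mmp8, and Ngp was at -5.02 (adjusted p = 0.137), while Clec4d, Ly6g and Itgam were at -1.79, -1.40 and -1.31. For Mmp9 the ratio was -0.52, 0.59 and -0.74 in the DSS libraries, compared with -0.68, -0.40 and 0.21 in the DSS+BV libraries. These overlapped almost fully, with a difference of -0.069 (exact permutation p = 0.9, adjusted p = 0.9), from log2 differences of -2.69 for Mmp9 and -2.62 for the list. The Mmp9 difference turned to 0.34 without DSS 2 and to 0.13 without DSS+BV 1. With the markers summed as CPM, which weights Ly6g most, the Mmp9 difference was -0.95 and that of Mmp8 -2.58. Ly6g itself overlapped between the groups (edgeR adjusted p = 0.625). It had 485, 76.1 and 854 CPM in the DSS libraries and 303, 215 and 19.1 CPM in the DSS+BV libraries.

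Against fibroblast markers, Mmp3 and Mmp13 had lower ratios in DSS+BV and Mmp2 and Mmp14 had higher ones. The differences were -2.22 for Mmp3 and -2.32 for Mmp13, with no overlap of the groups. For Mmp2 and Mmp14 they were 0.22 and 0.40, in the other direction and also with no overlap. The estimates of both genes thus lay above that of the fibroblast list, which was -1.03. This list is uneven too, with marker estimates from -2.33 to -0.12. They lie on both sides of the -0.82 of Mmp2 and the -0.63 of Mmp14, so the direction depends on the markers used. A gene with no difference would also have a higher ratio to this list. For Mmp2 the groups barely separated, with the highest DSS ratio at 1.015 and the lowest DSS+BV ratio at 1.035. With the markers summed as CPM, the Mmp2 difference was 0.36. All 4 had an exact permutation p of 0.1 and an adjusted p of 0.15. Against epithelial markers, Mmp10 differed by -3.75 with no overlap (exact permutation p = 0.1, adjusted p = 0.15). This came from log2 differences of -3.15 for Mmp10 and 0.60 for the list. The ratios of Mmp12 to macrophage markers and of Mmp7 to epithelial markers overlapped between the groups, with differences of -0.93 and 0.50 (exact permutation p = 0.5 and adjusted p = 0.562 for both). The Mmp7 difference was -0.081 without DSS+BV 3, and that of Mmp12 lay between -1.51 and -0.18 as single libraries were left out. The part of cell composition in the member values was not tested beyond these ratios.

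**Figure D5:**
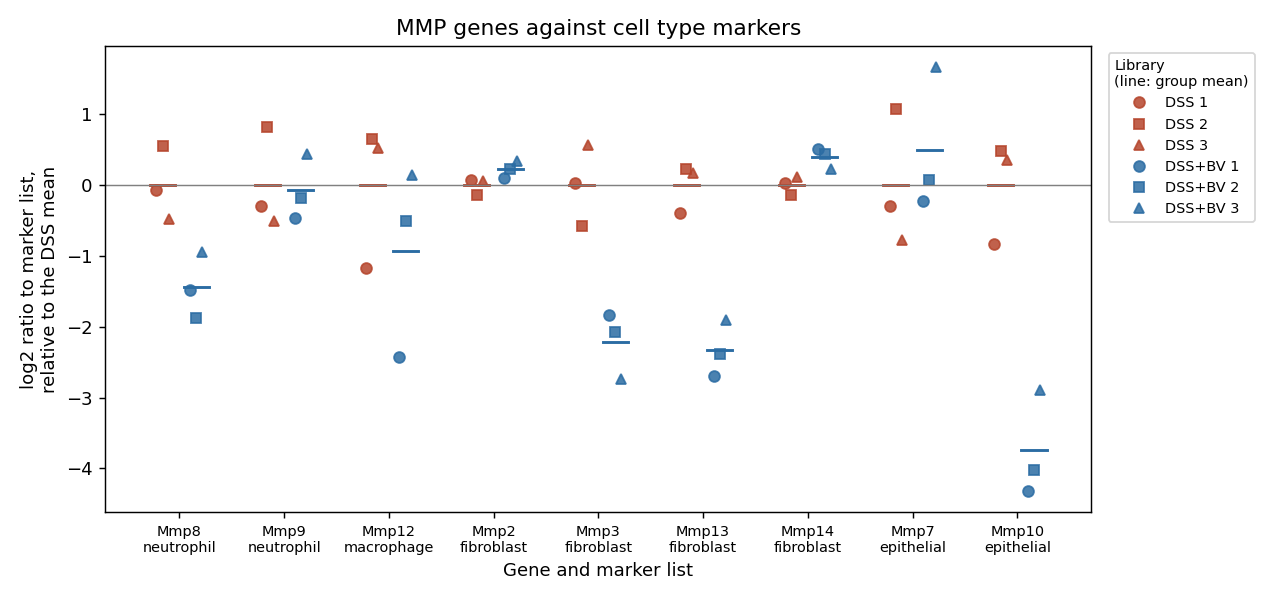
Log2 ratio of each member to the mean of its marker list, relative to the DSS mean, for each of the 6 libraries, with a line at the group mean. DSS+BV points lie below all DSS points for Mmp8, Mmp3, Mmp13 and Mmp10, above them for Mmp2 and Mmp14, and among them for Mmp9, Mmp12 and Mmp7.

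Of the inhibitors, Timp1 fell. Timp1 (Entrez 21857), the inducible TIMP, had 33.9, 35.9 and 43.6 CPM in the DSS libraries, compared with 7.39, 7.96 and 6.70 in the DSS+BV libraries, a log2 fold change of -2.36 (SE 0.176, adjusted p = 0.0179). This call is lost when DSS 1, DSS 3, DSS+BV 2 or DSS+BV 3 is left out, since 0 genes were then called lower. Of 7 inhibitors, 6 were tested, 5 were lower and 1 higher, against 51.5% of all tested genes lower. Timp1 was the 1 called, against 0.0892% of tested genes called lower, and the median was -0.53. A2m, which encodes the plasma protease trap alpha-2-macroglobulin, was low and variable, with 1.62, 7.58 and 7.34 CPM in the DSS libraries, compared with 1.52, 0.127 and 0 in the DSS+BV libraries (adjusted p = 0.369). Timp2, Reck and Timp3 were at -0.59, -0.47 and -0.36 and did not pass.

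Among the other MMP genes, 8 of 14 were tested, 6 were lower, 2 were higher and 0 were called, with a median of -0.49. Of all tested genes, 51.5% were lower and 0.0892% were called lower. Mmp25, a membrane-bound MMP of leukocytes, was at -1.91 (adjusted p = 0.346) and Mmp19 at -1.08 (adjusted p = 0.322). Mmp11 and Mmp23 were at -0.75 and -0.91. DESeq2 called 0 of the 8, against 1.73% of its genes lower, and 4 had an unadjusted edgeR p under 0.05, all lower, against 9.12%.

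Of 15 proteases that activate MMP proenzymes and their controls, 8 were tested, 6 were lower, 2 were higher and 0 were called with edgeR, with a median of -0.30. Of all tested genes, 51.5% were lower and 0.0892% were called lower. DESeq2 called 2 of the proteases and controls lower, against 1.73% of its genes. An unadjusted edgeR p under 0.05 was found for 4, all lower, against 9.12% of tested genes. Plat, tissue plasminogen activator, was at -2.23 (adjusted p = 0.283), and the serine protease inhibitor Serpine2 was at -1.91 (adjusted p = 0.246). Furin, which activates Mmp14 inside the cell, was at -0.42 (adjusted p = 0.329). All 7 surface proteins that dock or induce MMPs were tested, 4 were lower, 3 were higher and 0 were called, with a median of -0.21. Itgb3, a subunit of the integrin that binds Mmp2, was at -1.11 (adjusted p = 0.165), Itgav, its partner, at -0.71 (adjusted p = 0.307), Ddr2, a collagen receptor, at -0.60 (adjusted p = 0.345), and Cd44, which docks Mmp9, at 0.82 (adjusted p = 0.358). Of the 7, 3 had an unadjusted edgeR p under 0.05 in the lower direction, against 9.12% of tested genes. In the higher direction, 1 of the 7 did, against 3.4%. DESeq2 called 1 lower, against 1.73% of its genes.

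The matrix proteins that MMPs cut were lower as a group in count. Of 17, 16 were tested and all 16 had lower estimates, as did 51.5% of all tested genes. Every DSS+BV library was lower than every DSS library for 15, against 11.3% of tested genes. The median was -1.06, while 1 was called, against 0.0892% called lower. Col4a2, a chain of basement membrane collagen and a substrate of the gelatinases, fell from 354 ± 25.8 to 129 ± 16.6 CPM (log2 fold change -1.45, SE 0.151, adjusted p = 0.0424), a call lost in the same 4 fits with a library left out. At an unadjusted edgeR p under 0.05, 13 of the 16 were lower, against 9.12% of tested genes. DESeq2 called 8 lower, against 1.73% of its genes. The fibrillar collagen gene Col3a1, the second chain of the same basement membrane collagen, Col4a1, and the wound matrix gene Tnc were at -1.78, -1.39 and -1.44, each with an adjusted p of 0.0833. Their summed level was 6567 to 7510.4 CPM with PBS, compared with 2631 to 3845 CPM with *B. vulgatus*, and Col1a1, Col1a2, Col3a1 and Dcn are in the fibroblast list too.

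For each member, the 2 genes with the most similar profile were those with the smallest root mean square difference of centred log2 CPM over the 6 libraries, among 13169 genes, or 13170 for Mmp7. For Mmp8 they were S100a8 and S100a9, the calprotectin subunits, at 0.253 and 0.312. S100a8 had 46.3, 30.4 and 39.1 CPM in the DSS libraries, compared with 1.85, 1.47 and 2.09 in the DSS+BV libraries, a high and even level in DSS and a low one in DSS+BV as for Mmp8. For Mmp9 they were Timp1 and the adhesion gene Chl1, at 0.227 and 0.308. For Mmp3 they were the siderophore-binding Lcn2 and the decoy receptor gene Il1r2, at 0.407 and 0.468, while Mmp10 and Mmp13 were each other's nearest gene, at 0.434. The second genes were Saa3, an acute phase protein, for Mmp10 at 0.519 and Mmp9 for Mmp13 at 0.469.

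Mmp12, Mmp7, Mmp2 and Mmp14 had other neighbours. For Mmp12 they were Slc7a14 and Stmn3, at 0.134 and 0.152, and for Mmp7 the flagellin receptor gene Tlr5 and the zinc transporter gene Slc39a8, at 0.148 and 0.236. Tlr5 had 3.47, 10.9 and 2.91 CPM in the DSS libraries, compared with 5.87, 11.5 and 23.0 in the DSS+BV libraries, with the same order of libraries within each group as Mmp7. For Mmp2 they were Map3k12 and Tubg2, at 0.0623 and 0.0696, and for Mmp14 Ntng2 and Dnajc18, at 0.0422 and 0.0617. Among pairs of members, Mmp2 and Mmp14 were nearest, at 0.180, and Mmp7 and Mmp8 farthest apart, at 2.79. The measure depends on the range of a gene as well as on its pattern. Over the 6 libraries, the log2 range was 1.18 for Mmp2 and 1.04 for Mmp14, against 4.57 for Mmp8 and 4.70 for Mmp10.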

How the data were processed

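Total RNA from 6 mouse colons was sequenced by the study on a DNBSEQ-T7 instrument. The deposited values are expected counts, which the authors estimated per gene with RSEM and left unscaled. The submitters' processing notes name HISAT2 2.1.0, Bowtie2 2.2.5, RSEM 1.2.8 and GRCm38.p6. Groups came from the sample labels.

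Expected counts were rounded (2 of the 54 member values were not whole, Mmp3 and Mmp10 in DSS 3, where RSEM divided reads between genes). Genes were kept with filterByExpr (minimum count 10, minimum total 15), scaled with TMM and tested by edgeR 4.0.16 (quasi-likelihood, R 4.3.3), without covariates, with Benjamini-Hochberg adjustment over 14579 genes. The study's methods use DESeq2, which was run as an alternative (1.42.0) with their thresholds. Log2 CPM for profiles and ratios had a prior count of 2. The p-values measure the spread between 3 mice per group, and the biological coefficient of variation was 32.1%. The tests were first run on simulated data. Alternatives were other scalings, filters, a robust fit, unrounded counts, the replicate number as a block and each library left out.

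Positions and promoters came from RefSeq (GRCm38.p6), and exon lengths from the GENCODE basic annotation of GRCm38. Figures were drawn with matplotlib 3.10.9. Named genes were the 9 members, the 2 most similar genes per member, and of each list its called genes and up to 4 more with the smallest p, of which 1 is not reported here. Surrounding genes of the cluster were the 3 nearest tested on each side. The members and lists were chosen with earlier results of these data known.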

Additional observations from a re-analysis of the deposited data

How the results depend on the processing

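In 143 alternative fits of a member, 0 changed the sign of its log2 fold change, and 119 kept the side of the threshold. RLE, upper-quartile or no scaling, no filter, a robust fit, unrounded counts and the adjusted p alone each left 13 genes and 3 members called lower and 0 higher. A filter of CPM above 1 in 3 libraries, which removed Mmp7, left 11 genes and 3 members. DESeq2 called 280 genes lower, 45 higher and 6 members lower. With each library left out, 0 to 3 genes were called lower, 0 to 4 higher and 0 to 1 members lower. Without both DSS 2 and DSS+BV 1, added after seeing the data, 333 genes were lower, 282 higher and 4 members lower. In that fit, treatment and library cluster coincide and cannot be told apart. The causes of these shifts were not tested. With the replicate number as a block, 0 genes and 0 members were called. The labels do not say whether the numbers pair the mice. The correlations of same-numbered deviations were 0.27, 0.25 and -0.30, and not every sample correlated best with its own number. With so few libraries, which also cluster across the groups, these correlations cannot decide it.

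With each library left out, the log2 ratio difference of Mmp9 to neutrophil markers ranged from -0.33 to 0.34, positive without DSS 2 (0.34) and without DSS+BV 1 (0.13), and that of Mmp7 to epithelial markers from -0.081 (without DSS+BV 3) to 1.04. Depth limits Mmp7, with 4 to 45 counts per library, and, in DSS+BV, Mmp8 with 5 to 10 and Mmp9 with 27 to 29.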

Other observations

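Set against Timp1 in the same library, the members parted into 3 sets. On the log2 scale, the ratio of Mmp2 to Timp1 was 2.39, 2.37 and 2.34 in the DSS libraries and 3.95, 3.61 and 4.16 in the DSS+BV libraries, a narrow range in DSS with every DSS+BV library above it. Mmp14 was alike, at 2.31, 2.32 and 2.35 against 4.33, 3.80 and 4.01. The ratios of Mmp8, Mmp9 and Mmp13 were lower in every DSS+BV library than in every DSS library, with differences of means of -2.05, -0.42 and -1.02. For Mmp13 the groups barely separated, with the lowest DSS ratio at 1.041 and the highest DSS+BV ratio at 1.027. The ratios of Mmp3, Mmp10 and Mmp12 overlapped between the groups, with differences of -0.91, -0.81 and 0.46. That of Mmp7, on few counts, did not overlap, at 3.69. Timp1 had a log2 fold change of -2.36, against a median of -0.011 over all tested genes. A gene with no difference would thus also have a higher ratio to Timp1 in DSS+BV. How many of all genes separate in this ratio was not computed. The ratios to Timp1 were not tested.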
